A study of Rattus norvegicus with 12 samples.

Results

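The Z-disc and mechanical stress genes followed here are 10 genes, Ankrd1, Ankrd2, Csrp3, Fhl1, Fhl2, Xirp1, Xirp2, Nrap, Myoz2 and Actn2, which were taken by their symbols from the 18469 genes of the deposited tables. RNA was sequenced from neonatal rat ventricular myocytes (NRVMs), heart muscle cells of newborn Sprague-Dawley rats kept in culture, in 12 libraries with 3 independent biological replicates in each of 4 groups. All cells had been transfected with an siRNA, and none of the groups was left without one. The siNeg group carried a negative control siRNA and was otherwise untreated. The siNeg PE group carried the same siRNA and was exposed for 36 h to phenylephrine (PE), which activates α-adrenergic receptors and causes hypertrophic growth of heart muscle cells, beginning 12 h after transfection. The siSlc25a26 and siSlc25a26 PE groups were the matching untreated and PE groups with an siRNA against Slc25a26, the mitochondrial carrier of S-adenosylmethionine. Primary cultures of this kind also hold some non-muscle cells, and an siRNA lowers its target only for a time and only in the cells that take it up.

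The Z-disc is the border between neighbouring sarcomeres, where actin filaments of opposite polarity are cross-linked and where the contractile apparatus is tied to the cell membrane. It is also a place where load on the muscle cell is sensed. Several of its proteins are known to move between the Z-disc and the nucleus, and in the heart the genes of Ankrd1, Csrp3 and Xirp1 are known for their response to stretch and hypertrophic stimuli. Actn2, Myoz2 and Nrap are mainly structural or assembly proteins, Csrp3, Fhl1, Fhl2, Ankrd1 and Ankrd2 are LIM or ankyrin repeat proteins linked to stress sensing, and Xirp1 and Xirp2 are actin-binding repeat proteins of the cell junctions.

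Promoter windows were read from RefSeq (build GRCr8), from 250 bases before to 50 bases after each annotated start, to show what sequence the genes share around their starts. Of the 10 genes, 7 had an entry, with 11 windows in all, and Ankrd1, Csrp3 and Nrap had none. Each window was searched on both strands for the CArG box bound by SRF, the MEF2 element, the MCAT element CATTCC bound by TEAD factors, the GATA element AGATAA and the AP-1 element TGANTCA. The 5 windows below are shown because they hold the matches of genes that moved upward under PE (Fhl1, Xirp1, Xirp2 and Myoz2) beside those of Fhl2, which did not. Each window is printed 5′ to 3′ on the strand of its gene, with matches in capitals.
Fhl1 promoter, chrX:139638246-139638545 (plus strand): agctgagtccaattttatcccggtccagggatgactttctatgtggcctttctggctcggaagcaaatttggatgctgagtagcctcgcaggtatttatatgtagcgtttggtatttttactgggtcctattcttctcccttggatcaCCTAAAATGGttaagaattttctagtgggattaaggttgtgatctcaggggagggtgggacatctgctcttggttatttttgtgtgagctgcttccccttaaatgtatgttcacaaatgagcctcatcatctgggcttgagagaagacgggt
Fhl2 promoter, chr9:52954491-52954790 (minus strand): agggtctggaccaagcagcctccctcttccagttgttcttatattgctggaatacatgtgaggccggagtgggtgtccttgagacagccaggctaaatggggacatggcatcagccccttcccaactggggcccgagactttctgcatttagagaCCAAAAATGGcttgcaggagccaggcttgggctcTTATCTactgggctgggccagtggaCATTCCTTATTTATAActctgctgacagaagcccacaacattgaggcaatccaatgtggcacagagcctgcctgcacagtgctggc
Xirp1 promoter, chr8:128634962-128635261 (minus strand): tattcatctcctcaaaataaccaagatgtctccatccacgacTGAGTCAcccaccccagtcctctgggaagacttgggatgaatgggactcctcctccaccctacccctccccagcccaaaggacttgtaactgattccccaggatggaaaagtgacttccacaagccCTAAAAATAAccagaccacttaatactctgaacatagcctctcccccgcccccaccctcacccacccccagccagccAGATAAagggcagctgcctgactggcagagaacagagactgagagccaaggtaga
Xirp2 promoter, chr3:72533936-72534235 (plus strand): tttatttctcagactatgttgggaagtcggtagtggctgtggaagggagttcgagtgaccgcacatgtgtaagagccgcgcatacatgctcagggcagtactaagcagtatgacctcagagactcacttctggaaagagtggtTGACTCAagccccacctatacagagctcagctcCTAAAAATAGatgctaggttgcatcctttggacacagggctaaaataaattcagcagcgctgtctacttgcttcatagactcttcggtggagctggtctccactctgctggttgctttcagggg
Myoz2 promoter, chr2:213852729-213853028 (minus strand): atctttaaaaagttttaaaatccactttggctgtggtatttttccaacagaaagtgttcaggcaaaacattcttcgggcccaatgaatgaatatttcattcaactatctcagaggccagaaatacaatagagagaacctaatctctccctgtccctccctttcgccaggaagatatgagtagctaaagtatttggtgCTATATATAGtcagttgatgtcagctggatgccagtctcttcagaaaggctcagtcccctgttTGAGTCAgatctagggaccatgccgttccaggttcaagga

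The capitals in the Fhl1 window are a CArG box 102 to 93 bases before the start. The Fhl2 window holds a CArG box 95 to 86 bases before the start, then a GATA element on the opposite strand, and an MCAT element directly followed by a MEF2 element 30 to 21 bases before the start, and the second Fhl2 window held another CArG box 58 to 49 bases before its start. In order along the windows, the capitals are an AP-1, a MEF2 and a GATA element in Xirp1, an AP-1 and a MEF2 element in Xirp2, and a MEF2 element followed by an AP-1 element 11 to 17 bases after the start in Myoz2. No matched letters belonged to more than 1 motif. A CArG box stood in 3 of the 11 windows of these genes and in 1.64% of all 33469 windows, a MEF2 element in 5 and in 3.29%, and an AP-1 element in 4 and in 7.33%. A GATA element stood in 3 of the 11 and in 11.6% of all windows, and an MCAT element in 1 and in 14.2%. The 2 first Xirp1 windows lie 8 bases apart and hold the same matches. The windows of Actn2 and Ankrd2, the second of Fhl1 and the third of Xirp1 held none of the 5 motifs. These matches describe letters in the windows only.

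The libraries held 24770972 to 28709049 counts each. Levels of a gene across groups are given as CPM, counts scaled to the same library size with edgeR's TMM factors, as mean ± SD of 3 libraries. Genes were called at a fold change above 1.5 with a Benjamini-Hochberg adjusted p under 0.05 in edgeR's quasi-likelihood test over all tested genes. Nppa, the natriuretic peptide gene used as a marker of hypertrophy, went from 122 ± 10.1 to 3007 ± 503 CPM with PE in siNeg. Slc25a26 was at 31.8 ± 2.19 CPM in siNeg and 15.0 ± 0.588 CPM in siSlc25a26, whereas the libraries labelled siSlc25a26 PE held 101 ± 3.08 CPM and those of siNeg PE 102 ± 14.0 CPM (log2 fold change -0.01, edgeR adjusted p = 0.969). The target was thus lower in the siSlc25a26 libraries without PE and not under PE, and every difference below between the PE groups carries that limit.

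Summed markers of other cell types moved with the groups. The 10 fibroblast markers summed to 21865 to 23940 CPM in siNeg, 11737 to 12202 in siNeg PE, 12371 to 13918 in siSlc25a26 and 8621 to 9424 in siSlc25a26 PE, with Fap under 1 CPM in both siSlc25a26 groups. The 10 ventricular cardiomyocyte markers, all present, summed to 38047 to 40087, 58121 to 65604, 34882 to 39017 and 74434 to 80578 CPM in the same order. Between siNeg PE and siSlc25a26 PE, 1 of these 10 was called higher and none lower, with a median log2 fold change of 0.03. The higher sum in siSlc25a26 PE was thus not a rise across the list. Mural markers lay between 1716 and 3104 CPM in all libraries, macrophage markers between 40.8 and 131 CPM with Ptprc and C1qb under 1 CPM, and endothelial markers between 26.7 and 33.5 CPM with Pecam1, Cdh5, Vwf and Emcn under 1 CPM. Atrial markers lay between 93.2 and 342 CPM, highest in siNeg PE, and the 7 skeletal muscle markers in the tables summed to at most 2.82 CPM. The part of these shifts in the results below was not tested, and in bulk RNA fewer cells of a type and less RNA per cell cannot be told apart.

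Treatment with PE raised 8 of the 9 tested genes with either siRNA, and lowered none at the 1.5-fold threshold. With siNeg the increases ran from 1.70-fold for Xirp1 to 6.52-fold for Ankrd1, and with siSlc25a26 from 2.05-fold for Actn2 to 14.8-fold for Fhl1. Fhl2 was the exception, with a lower mean in both PE groups. Over all tested genes PE called 12.4% higher and 8.24% lower with siNeg, and 10.1% higher and 10.4% lower with siSlc25a26. The median log2 fold change of the 9 genes was 1.59 with siNeg and 1.37 with siSlc25a26, against 0.0 over all tested genes in both cases. Of the 10 ventricular cardiomyocyte markers 3 were called higher with PE in siNeg and 4 in siSlc25a26, with medians of 0.37 and 0.39, and of the 10 fibroblast markers 5 and 2 were called lower. As a share of all counts, the 10 genes made up 0.5% to 0.51% per siNeg library and 1.18% to 1.43% per siNeg PE library, and with siSlc25a26 0.58% to 0.595% without PE and 1.86% to 1.99% under PE. Ankrd2, the ankyrin repeat paralog of Ankrd1 known mainly from skeletal muscle, had 0 to 3 counts in every library. In siSlc25a26 PE it had 0 counts in all 3, where 3 counts would be 0.108 to 0.112 CPM, so it was not tested and any difference was not detectable at this depth.

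**Figure D1:**
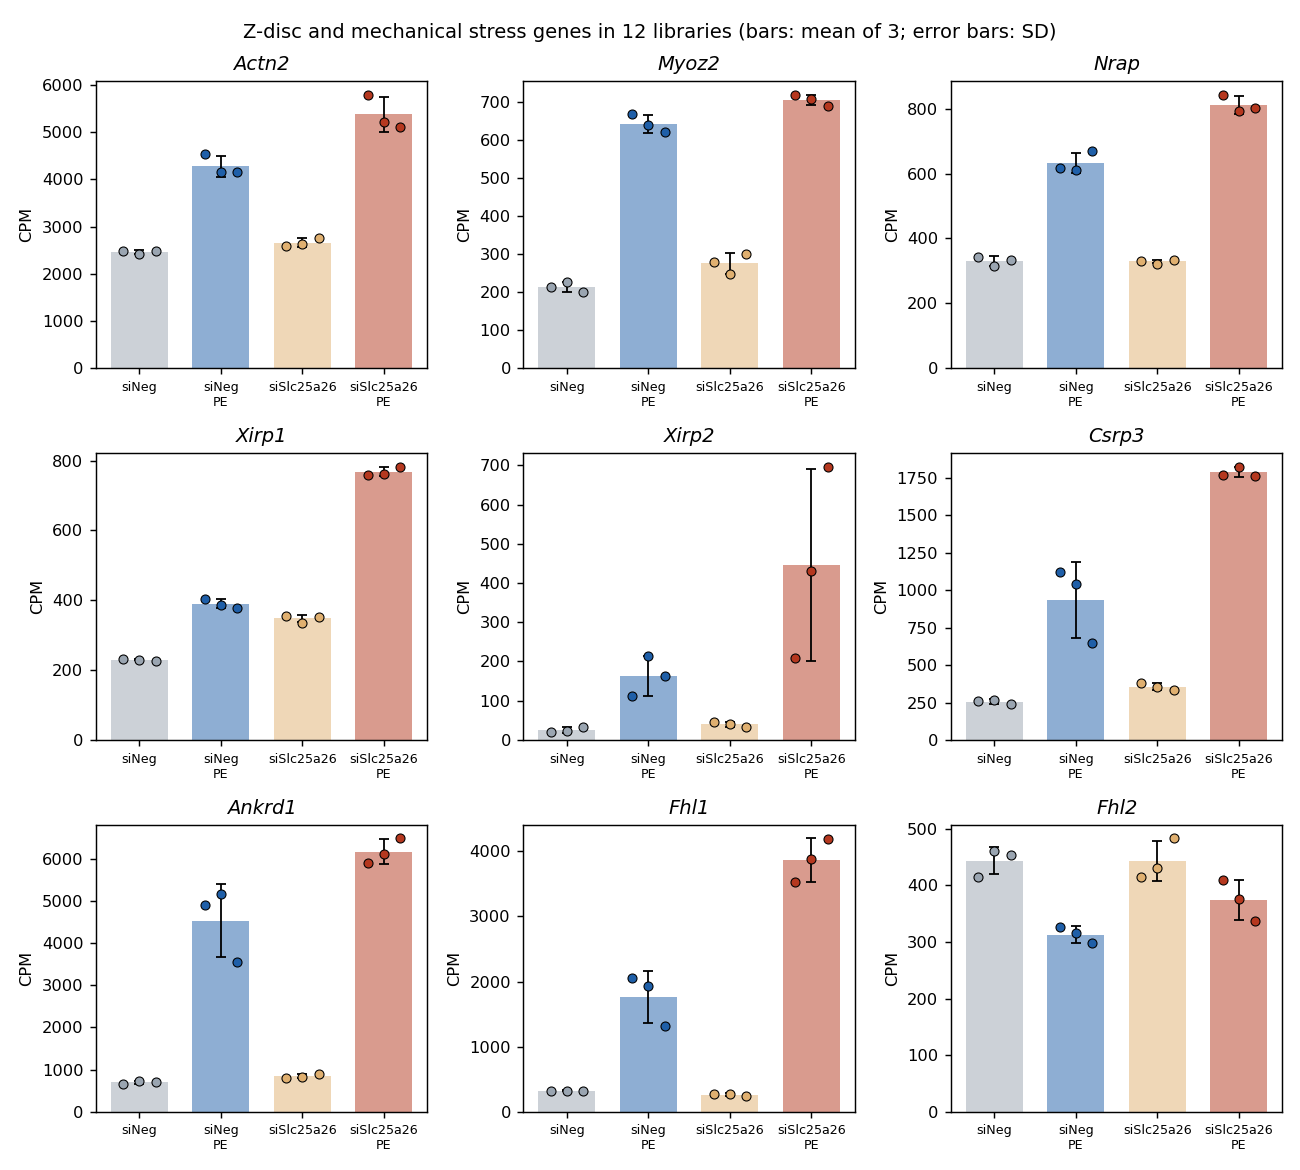
CPM of the 9 tested genes in the 4 groups, 1 panel a gene, with bars for the mean of 3 libraries, error bars for the SD and points for the libraries. Fhl1 reached 3866 ± 335 CPM in siSlc25a26 PE against 1767 ± 399 in siNeg PE, Xirp2 spread from 208 to 697 CPM in siSlc25a26 PE, and Fhl2 was lowest in siNeg PE.

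Actn2 encodes the α-actinin that cross-links actin filaments at the Z-disc of heart muscle. Its CPM in the 3 libraries was 2481, 2413 and 2484 in siNeg, 4532, 4148 and 4158 in siNeg PE, 2597, 2620 and 2763 in siSlc25a26, and 5793, 5220 and 5110 in siSlc25a26 PE. The 4 groups did not overlap, and siNeg and siSlc25a26 lay closest together. The PE effect was 0.80 on the log2 scale (SE 0.0564, edgeR adjusted p = 3.16e-05) with siNeg and 1.03 (SE 0.0576, adjusted p = 1.44e-06) with siSlc25a26.

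Myoz2 encodes calsarcin-1, which binds α-actinin and calcineurin at the Z-disc. Its CPM was 212, 226 and 201 in siNeg, 667, 639 and 620 in siNeg PE, 278, 247 and 301 in siSlc25a26, and 717, 706 and 689 in siSlc25a26 PE. The PE libraries lay far above the untreated ones, whereas the PE groups themselves were separated only by 667 and 689 CPM. Among the 8 raised genes Myoz2 alone had the larger PE effect, in value, with siNeg, at 1.59 (SE 0.0575, edgeR adjusted p = 2.96e-06) against 1.37 (SE 0.0689, adjusted p = 8.13e-07).

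Nrap encodes a nebulin-related anchoring protein that takes part in myofibril assembly and links actin to the cell ends. It stood at 344, 314 and 334 CPM in siNeg and at 330, 322 and 334 in siSlc25a26, so that the untreated groups overlapped. Under PE it stood at 616, 612 and 669 CPM with siNeg and at 843, 792 and 801 with siSlc25a26, without overlap. Its PE effects were 0.94 (SE 0.0637, edgeR adjusted p = 2.76e-05) and 1.32 (SE 0.0463, adjusted p = 1.3e-07).

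Ankrd1 encodes CARP, a cardiac ankyrin repeat protein that binds titin and is also found in the nucleus. Its CPM was 653, 741 and 696 in siNeg, 4904, 5158 and 3554 in siNeg PE, 810, 832 and 890 in siSlc25a26, and 5904, 6120 and 6490 in siSlc25a26 PE. The lowest PE library, at 3554 CPM, was far above the highest untreated one, at 890 CPM. The log2 fold change with PE was 2.70 (SE 0.135, edgeR adjusted p = 7.87e-06) with siNeg and 2.89 (SE 0.0603, adjusted p = 1.22e-08) with siSlc25a26.

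Csrp3 encodes muscle LIM protein, which binds α-actinin and titin-cap at the Z-disc. It stood at 260, 269 and 237 CPM in siNeg, 1121, 1039 and 645 in siNeg PE, 378, 357 and 331 in siSlc25a26, and 1771, 1827 and 1765 in siSlc25a26 PE. No groups overlapped, and the third siNeg PE library was well below the other two, as it was for Ankrd1 and Fhl1. PE raised Csrp3 by 1.87 (SE 0.18, edgeR adjusted p = 0.000139) with siNeg and by 2.35 (SE 0.0599, adjusted p = 2.57e-08) with siSlc25a26.

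Fhl1 encodes a LIM-only protein that binds titin near the I-band and is known as part of a biomechanical stress complex. Its CPM was 324, 324 and 315 in siNeg, 2062, 1926 and 1313 in siNeg PE, 280, 273 and 240 in siSlc25a26, and 3525, 3879 and 4194 in siSlc25a26 PE. It was the only one of the 9 whose siSlc25a26 libraries all lay below those of siNeg without PE and above those of siNeg PE with PE. PE raised it by 2.46 (SE 0.149, edgeR adjusted p = 1.79e-05) with siNeg and by 3.89 (SE 0.0896, adjusted p = 1.67e-08) with siSlc25a26.

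Fhl2 is the cardiac paralog of Fhl1 and is known as a repressor of calcineurin signalling and a coregulator of SRF. It stood at 415, 460 and 453 CPM in siNeg, 326, 316 and 298 in siNeg PE, 415, 430 and 483 in siSlc25a26, and 409, 376 and 337 in siSlc25a26 PE. The untreated groups overlapped, and every PE library lay below every untreated one. The log2 fold change was -0.50 (SE 0.0574, edgeR adjusted p = 0.000322) with siNeg, or 1.41-fold, short of the threshold. With siSlc25a26 it was -0.22 (SE 0.0797, edgeR adjusted p = 0.0404), and this adjusted p was above 0.05 when siSlc25a26 replicate 2 (0.0684) or 3 (0.128) or siSlc25a26 PE replicate 2 (0.0973) or 3 (0.0998) was left out. In limma on FPKM the same log2 fold change was -0.43, with an adjusted p of 0.0035 or less in the 3 settings. On these scales the median of all genes was itself negative, at -0.14, -0.17 and -0.05.

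Xirp1 and Xirp2 encode the Xin actin-binding repeat proteins of the intercalated disc and the Z-disc region. Xirp1 stood at 232, 230 and 227 CPM in siNeg, 405, 387 and 378 in siNeg PE, 355, 336 and 352 in siSlc25a26, and 759, 762 and 783 in siSlc25a26 PE. Libraries of a group lay close together, with a coefficient of variation of 3.49% at most, and no groups overlapped. PE raised Xirp1 by 0.76 (SE 0.0471, edgeR adjusted p = 1.89e-05) with siNeg and by 1.16 (SE 0.046, adjusted p = 2.32e-07) with siSlc25a26.

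Xirp2 had the widest spread of the 9. Its CPM was 19.1, 22.8 and 34.1 in siNeg, 111, 214 and 163 in siNeg PE, 46.2, 40.0 and 32.7 in siSlc25a26, and 208, 430 and 697 in siSlc25a26 PE. PE and untreated libraries were clearly apart, while siNeg overlapped with siSlc25a26 and siNeg PE with siSlc25a26 PE. The PE effect was 2.69 (SE 0.279, edgeR adjusted p = 0.000198) with siNeg and 3.51 (SE 0.386, adjusted p = 8.67e-05) with siSlc25a26. Ttn (titin) and Dmd (dystrophin), picked after their values had been seen, were also uneven among PE libraries, with either siRNA. Ttn stood at 1249, 1618 and 2492 CPM in siSlc25a26 PE and at 1338, 1727 and 2155 CPM in siNeg PE, in the order in which the libraries of Xirp2 are given. Dmd stood at 58.0, 89.9 and 131 CPM and at 61.3, 98.4 and 124 CPM in the same order. Without PE, Ttn stood at 788, 720 and 1160 CPM in siNeg and at 1001, 912 and 983 CPM in siSlc25a26. Library 3 held the most of both genes in each PE group, while Xirp2 was highest in library 3 of siSlc25a26 PE and in library 2 of siNeg PE. Whether a property of these libraries bears on the Xirp2 values was not tested.

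**Figure D2:**
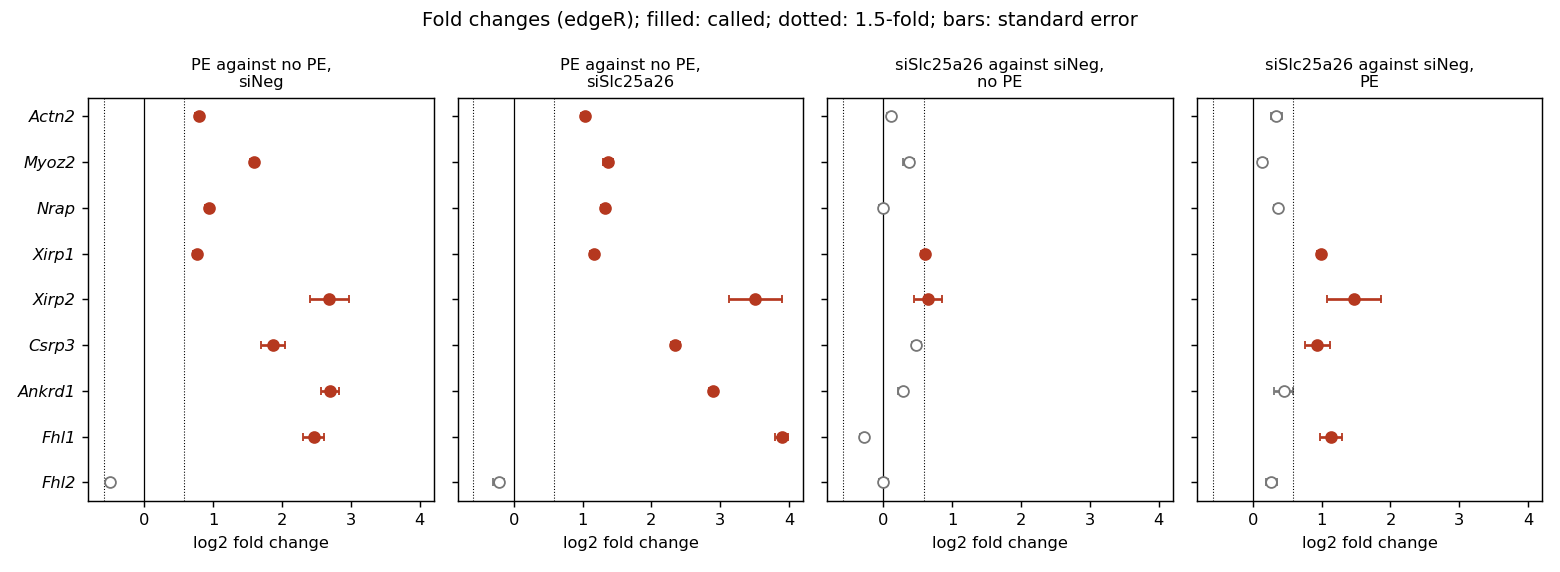
Log2 fold changes of the 9 tested genes in 4 comparisons, with standard errors as bars, called genes as filled points and the 1.5-fold threshold as dotted lines. In both PE comparisons 8 genes are filled and Fhl2 lies left of 0, while 2 genes are filled for siSlc25a26 without PE and 4 under PE.

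Between siSlc25a26 and siNeg without PE, Xirp1 and Xirp2 were the 2 called higher of 9 tested, and none was called lower, against 8.92% higher and 7.2% lower over all tested genes. Xirp1 was 1.51-fold higher (log2 0.60, SE 0.0457, edgeR adjusted p = 1.34e-05), which is at the threshold of 1.5. Its log2 value stayed between 0.57 and 0.64 under every alternative, and it fell below 1.5-fold without siNeg replicate 2 (0.58), siNeg replicate 3 (0.57) or siSlc25a26 replicate 1 (0.58). Xirp2 was 1.57-fold higher (log2 0.65, SE 0.2, edgeR adjusted p = 0.0274), but its groups overlapped. Its adjusted p was above 0.05 without siNeg replicate 1 (0.0663) or 2 (0.0834) and without siSlc25a26 replicate 1 (0.1) or 2 (0.0706), and the log2 value rose to 0.90 without siNeg replicate 3. With all libraries kept, it was also above 0.05 in DESeq2 (0.0599) and in limma on log2(FPKM + 1) without the filter (0.0644). In edgeR it was 0.068 with the replicate block and 0.175 in the fit of all 12 libraries.

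A further 4 genes had differences with an edgeR adjusted p under 0.05 that did not reach 1.5-fold. Together with Xirp1 and Xirp2 these were 6 of 9, against 45.0% of all tested genes at that adjusted p whatever the fold. Csrp3 was higher in siSlc25a26 by 0.48 (SE 0.0677, edgeR adjusted p = 0.000591), Myoz2 by 0.37 (SE 0.0763, adjusted p = 0.00423) and Ankrd1 by 0.28 (SE 0.0616, adjusted p = 0.00621). Fhl1 was lower, at -0.28 (SE 0.0632, edgeR adjusted p = 0.00674), and its adjusted p was 0.14 in the fit of all 12 libraries and 0.0601 in limma on log2(FPKM + 1) without the filter. Actn2 at 0.11 (SE 0.0495, edgeR adjusted p = 0.0898), Nrap at -0.01 (SE 0.05, adjusted p = 0.903) and Fhl2 at 0.0 (SE 0.0685, adjusted p = 0.993) did not pass the test. The median of the 9 genes was 0.28 against 0.01 over all tested genes.

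Under PE, the libraries labelled siSlc25a26 had more RNA of 4 of the 9 tested genes than siNeg, and none was called lower, against 7.71% higher and 8.1% lower over all tested genes. These were Xirp2 at 2.77-fold, Fhl1 at 2.20-fold, Xirp1 at 1.98-fold and Csrp3 at 1.92-fold. On the log2 scale Fhl1 was higher by 1.14 (SE 0.161, edgeR adjusted p = 0.000669), Xirp1 by 0.99 (SE 0.0608, adjusted p = 4.25e-06) and Csrp3 by 0.94 (SE 0.179, adjusted p = 0.00312). Xirp2 was higher by 1.47 (SE 0.387, edgeR adjusted p = 0.0152) with overlapping groups, and without siNeg PE replicate 3 the adjusted p was 0.0601. Without that replicate, the library lowest in Ankrd1, Csrp3 and Fhl1, Csrp3 was still higher by 0.71 (edgeR adjusted p = 0.00013) and Fhl1 by 0.94 (adjusted p = 0.00026). The size of the Xirp2 difference also depended on 1 high library. Without siSlc25a26 PE replicate 3 the log2 difference was 0.99 (edgeR adjusted p = 0.0429), and Xirp2 was still called.

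The other 5 genes were below 1.5-fold under PE. Ankrd1 was higher by 0.45 (SE 0.135, edgeR adjusted p = 0.0256), by 0.28 without siNeg PE replicate 3, and with an adjusted p of 0.062 or 0.0565 without siSlc25a26 PE replicate 2 or 3. Nrap was higher by 0.37 (SE 0.0599, edgeR adjusted p = 0.00133) and Actn2 by 0.34 (SE 0.0779, adjusted p = 0.00806). Fhl2 was higher by 0.27 (SE 0.0792, edgeR adjusted p = 0.0255), a value that dropped to 0.10 (adjusted p = 0.319) in limma on log2(FPKM + 1). Its edgeR adjusted p was also above 0.05 without siNeg PE replicate 2 (0.0746) or 3 (0.0833) and without siSlc25a26 PE replicate 1 (0.072) or 2 (0.0908). Myoz2 was at 0.14 (SE 0.0605, edgeR adjusted p = 0.0888). The median of the 9 genes was 0.45 against 0.0 over all tested genes. With 3 libraries against 3, the two-sided exact permutation test of a single gene cannot go below p = 0.1, which it gave for 8 of the 9 genes here, and it gave 0.2 for Xirp2. The share of all tested genes that reach 0.1 was not computed, so this count is not a result about the 9 genes.

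Whether PE acted differently with the 2 siRNAs was tested as the interaction over all 12 libraries. Of the 9 genes, Fhl1 alone was called, with a PE effect 2.65 times as large with siSlc25a26 as with siNeg, against 2.16% called higher and 3.34% called lower over all tested genes. On the log2 scale the difference was 1.40 (SE 0.188, edgeR adjusted p = 0.000899), and it was 1.24 without siNeg PE replicate 3. Xirp1 at 0.38 (SE 0.0615, edgeR adjusted p = 0.00257) and Nrap at 0.36 (SE 0.0739, adjusted p = 0.00768) passed on adjusted p and not on size. With Fhl1 these were 3 of 9, against 11.2% of all tested genes at that adjusted p whatever the fold. The remaining 6 genes did not pass the test. Among them Xirp2 had a difference of 0.80 (SE 0.521, edgeR adjusted p = 0.358), Csrp3 of 0.45 (SE 0.212, adjusted p = 0.196) and Ankrd1 of 0.16 (SE 0.157, adjusted p = 0.555). The values of Xirp2, Csrp3 and Ankrd1 moved with single libraries in both directions, and none passed when a library was left out. Xirp2 went to 0.32 without siSlc25a26 PE replicate 3, to 0.51 without siNeg replicate 3 and to 1.14 without siSlc25a26 PE replicate 1. Csrp3 went to 0.25 without siNeg PE replicate 3 and to 0.60 without siNeg PE replicate 1. Ankrd1 went to 0.02 without siNeg PE replicate 3 and to 0.27 without siNeg PE replicate 2. Myoz2 was the one gene with a negative value, -0.24 (SE 0.0929, edgeR adjusted p = 0.115). In limma on FPKM the Myoz2 value was -0.35, with an adjusted p of 0.0302 or less in the 3 settings. On these scales the median of all genes was -0.13, -0.15 and -0.05, against -0.05 in edgeR. Without siSlc25a26 replicate 2 the Myoz2 value was -0.31 (edgeR adjusted p = 0.0481). Actn2 had an adjusted p of 0.0469 in DESeq2, at 0.24, against 0.13 in edgeR, at 0.21. The median of the 9 genes was 0.36 against -0.05 over all tested genes.

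**Figure D3:**
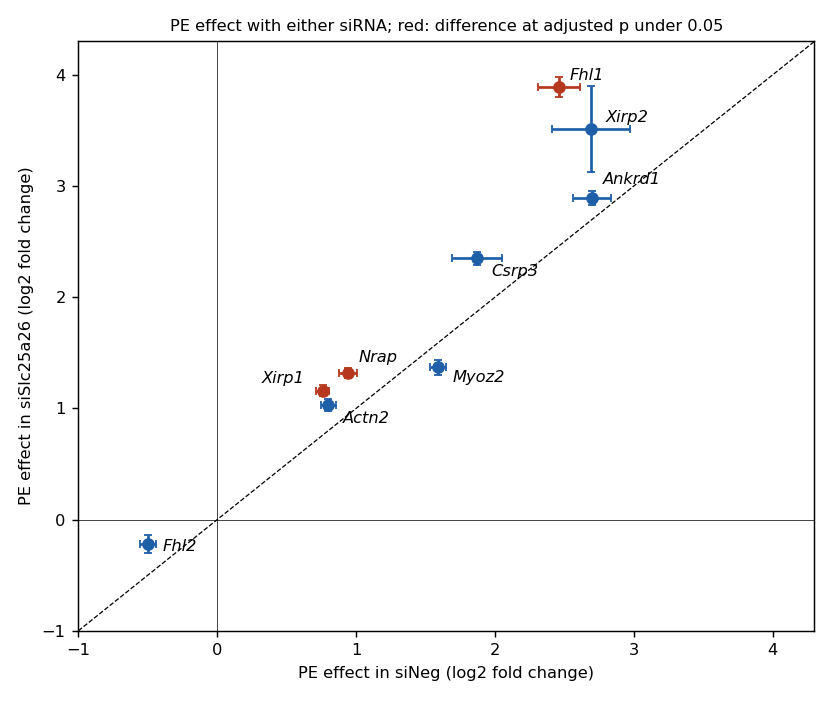
The PE effect with siSlc25a26 (vertical axis, log2 fold change) against that with siNeg (horizontal axis), with standard errors as bars, the dashed line marking equal effects. Fhl1, Xirp1 and Nrap, in red, had a difference with an adjusted p under 0.05, and Fhl1 lies farthest above the line at 2.46 and 3.89.

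Levels of different genes were compared per length, as FPKM. In siNeg the order of mean FPKM was Actn2 (869), Ankrd1 (422), Fhl2 (357), Csrp3 (305), Myoz2 (198), Fhl1 (141), Nrap (63.0), Xirp1 (40.5) and Xirp2 (2.15). No neighbours in that order overlapped. In siNeg PE the order was led by Ankrd1 at 2670 FPKM, rank 13 of all genes, followed by Actn2 at 1469 and Csrp3 at 1100. There Fhl1, at 582 to 883 FPKM, overlapped both with Csrp3 above it (769 to 1305) and with Myoz2 below it (571 to 592). The siSlc25a26 order differed from that of siNeg in Csrp3 (446 FPKM) standing above Fhl2 (353), and Nrap and Xirp1 overlapped. In siSlc25a26 PE the first 4 were Ankrd1 (3491, rank 12 of all genes), Csrp3 (2066), Actn2 (1773) and Fhl1 (1621), of which Actn2 and Fhl1 overlapped. Fhl2 thus went from the third place in siNeg to the sixth in both PE groups.

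**Figure D4:**
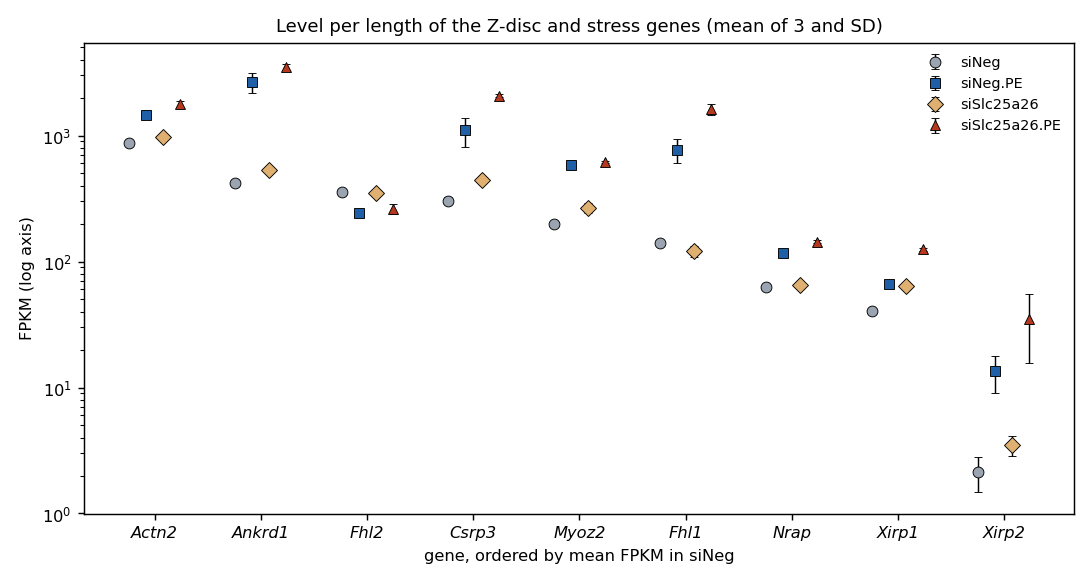
Mean FPKM of the 9 genes in the 4 groups on a log axis, with the SD of 3 libraries as bars, ordered by the siNeg mean. Ankrd1 was highest in both PE groups, at 2670 and 3491 FPKM, and Fhl2 is the gene whose PE points lie below the untreated ones.

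RNA of other Z-disc genes, where called under PE, moved mostly in the same direction, in a smaller share. Of 40 listed Z-disc partners 36 were tested, and 12 rose and none fell with siNeg, while 19 rose and 1 fell with siSlc25a26, with median log2 fold changes of 0.44 and 0.66 against 0.0 over all genes. With siNeg, Nebl, which ties thin filaments to the Z-disc, rose from 143 ± 45.7 to 385 ± 89.8 CPM, and Nexn (nexilin), an actin-binding protein, rose from 109 ± 23.4 to 284 ± 59.3 CPM. With siSlc25a26, Pdlim5, a scaffold that binds α-actinin, rose from 348 ± 4.60 to 1102 ± 86.0 CPM and Trim54, a muscle ubiquitin ligase, fell from 296 ± 3.66 to 169 ± 23.5 CPM. Between the siRNAs, 1 partner was higher (Palld, at 83.4 ± 0.96 and 134 ± 7.26 CPM) and 1 lower (Myoz1) without PE. Under PE 8 were higher and 1 lower (Myoz1 again), among them Flnc (filamin C, 910 ± 46.5 and 1797 ± 34.8 CPM) and Cavin4 (4.61 ± 0.309 and 10.9 ± 2.21 CPM). Myoz1 was below 5 CPM and is named because it was the single gene called lower. In the interaction 6 partners were called higher and none lower. The counts of this list and of the lists that follow stand beside the shares of all tested genes called higher and lower. With PE these were 12.4% and 8.24% with siNeg, and 10.1% and 10.4% with siSlc25a26. Between the siRNAs they were 8.92% and 7.2% without PE and 7.71% and 8.1% under PE, and 2.16% and 3.34% in the interaction. Tcap was not analysed here.

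Of 15 listed paralogs, the closest relatives of the 10 genes, 11 were tested. With PE 3 rose (Nebl, Csrp2 and Ankrd23) and 1 fell (Lasp1, from 222 ± 19.7 to 127 ± 6.70 CPM) with siNeg, and 6 rose and none fell with siSlc25a26, with medians of -0.12 and 0.70. Csrp2, the smooth muscle relative of Csrp3, rose from 65.5 ± 4.22 to 168 ± 9.54 CPM with siNeg and from 34.3 ± 5.66 to 113 ± 17.4 CPM with siSlc25a26. Without PE, 3 paralogs were lower in siSlc25a26 (Crip1, Myoz1 and Csrp2) and none was higher. Under PE 2 were higher and 2 lower, and Actn1, the non-muscle relative of Actn2, stood at 220 ± 23.7 CPM with siNeg and 449 ± 54.5 CPM with siSlc25a26. Ankrd23, the third of the muscle ankyrin repeat family, was below 5 CPM and was named after its values had been seen. Its PE effect was 0.96 (SE 0.29, edgeR adjusted p = 0.0252) with siNeg and 2.97 (SE 0.197, adjusted p = 4.05e-06) with siSlc25a26. In the interaction 4 paralogs were called higher, Actn1, Actn4, Csrp1 and Ankrd23, and none lower.

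Of 30 costamere and adhesion genes, which tie the Z-disc to the membrane and matrix, all were tested. PE raised 7 with siNeg and 11 with siSlc25a26 and lowered none, with medians of 0.30 and 0.43. Itgb1bp2 (melusin), an integrin-binding protein known for its role in load sensing, rose from 44.2 ± 5.74 to 122 ± 24.9 CPM with siNeg, and Sorbs2, a Z-disc and adhesion adaptor, from 583 ± 55.5 to 1536 ± 94.5 CPM. Without PE, siSlc25a26 had 2 higher (Ank3 and Sgcd) and 2 lower, Vcl (vinculin, 749 ± 30.6 and 436 ± 23.1 CPM) and Lims2 (93.6 ± 5.95 and 40.0 ± 3.97 CPM). These 2 and 2 of 30 were not above the 8.92% higher and 7.2% lower over all tested genes. Under PE 4 were higher and 1 lower, with Sorbs2 at 1536 ± 94.5 CPM with siNeg and 2711 ± 274 CPM with siSlc25a26. In the interaction 3 were called higher and 1 lower, and the lower calls numbered 0 in DESeq2 and 2 with the replicate block.

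The 29 tested genes of 30 listed as targets of YAP-TEAD and MRTF-SRF, transcription factors that respond to mechanical state, moved in both directions. With PE, 6 rose and 3 fell with siNeg and 13 rose and 2 fell with siSlc25a26, with medians of 0.07 and 0.43. The falls, 3 and 2 of 29, were near or below the 8.24% and 10.4% of all tested genes called lower. Acta1, the skeletal α-actin gene re-expressed in hypertrophy, rose from 273 ± 48.7 to 2469 ± 825 CPM with siNeg and from 190 ± 62.7 to 6663 ± 813 CPM with siSlc25a26. Tagln and Acta2, smooth muscle genes, fell with siNeg from 1106 ± 69.9 to 453 ± 54.3 CPM and from 1724 ± 66.3 to 948 ± 142 CPM. Without PE 1 was higher (Nuak2) and 7 lower in siSlc25a26 (Cnn1, Tagln, Actg2, Acta2, Myl9, Vcl and Cnn2), or 6 lower with the replicate block. Under PE 5 were higher and 3 lower, with Ctgf at 436 ± 122 CPM with siNeg and 1061 ± 99.2 CPM with siSlc25a26. In the interaction 8 were called higher and 1 lower. Acta2 and Cnn1 are also among the 10 mural markers, of which 5 were lower and 2 higher with PE in siNeg and 4 lower in siSlc25a26 without PE, and the part of this shift was not tested. Arhgef17 was not analysed here. The lists share genes (Vcl and Itga5, and Ankrd23, Nebl, Neb, Myoz1 and Myoz3), so their counts are not independent.

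**Figure D5:**
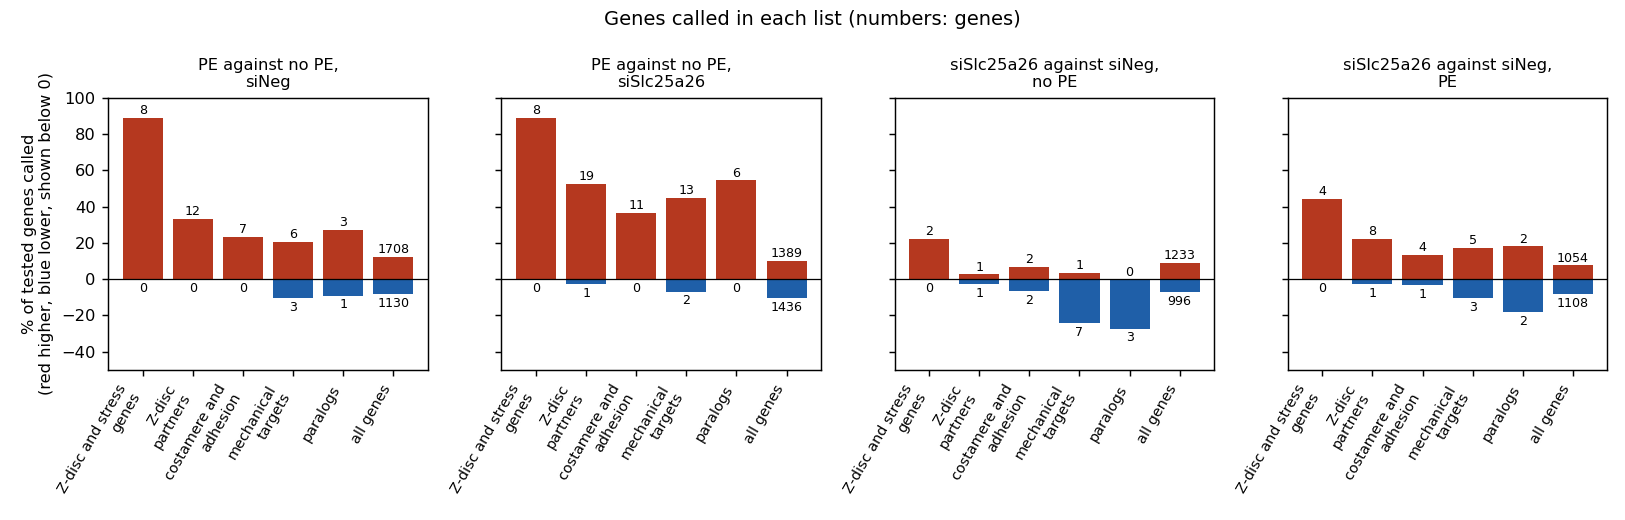
Share of tested genes called higher (red, above 0) or lower (blue, below 0) in 4 comparisons, for the Z-disc and stress genes, the 4 other lists and all tested genes, with the number of genes printed at each bar. Under PE 8 of 9 Z-disc and stress genes were higher with either siRNA, against 12 and 19 of 36 partners.

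The genes nearest in pattern to 8 of the 9 genes were found by the mean absolute difference of log2 CPM, each gene taken relative to its own mean, over the 12 libraries and 10791 genes. Actn2 was closest to Ldb3 (cypher, its binding partner at the Z-disc) and Gnao1, both at 0.054. Nrap was closest to Grip2 at 0.067, Xirp1 to Habp4 at 0.064, Fhl2 to Cdh13 at 0.061 and Csrp3 to the kinase gene Sik1 at 0.077. Myoz2 was closest to Enc1 at 0.10, Ankrd1 to Sypl2 at 0.13 and Fhl1 to Phf24 at 0.20, followed by Ankrd1 at 0.31. Among the 9 themselves, Nrap and Actn2 were nearest at 0.11, and none was near Fhl2, for which Actn2 ranked 10066 at 0.64. Actn2 ranked 7 for Nrap, and Nrap ranked 44 for Actn2. The nearest of the 9 ranked 2 for Fhl1, 9 for Ankrd1, 29 for Myoz2, 48 for Csrp3 and 348 for Xirp1. Distances are not comparable between genes, as the median over all genes ran from 0.28 for Fhl2 to 1.6 for Fhl1.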

How the data were processed

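Per the labels, RNA of NRVMs was sequenced by BGI in 12 libraries, 3 a group. Per gene, the authors deposited an estimated count of reads, made by a counting program not given in the sources used here, and in a second table FPKM values, scaled by gene length and library total, for 18469 genes. The submitters' processing notes name HISAT, Bowtie2 and Rnor_6.0. The annotation and strandedness of counting are not given in the sources used here, so overlapping antisense reads cannot be told apart. About 21% of the counts were not whole (20.8% to 21.9% a library) and were rounded, where plain counts had been planned for. Total counts were 24770972 to 28709049, and 3 counts equal 0.104 to 0.121 CPM, a floor that covers counting error only. No sequencing batch is labelled, and no 2 libraries of a group agreed within sampling noise.

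Counts were tested with edgeR 4.0.16 (TMM, filterByExpr, quasi-likelihood F-test, Benjamini-Hochberg over all tested genes) in R 4.3.3, with only the compared groups in a fit and all 12 libraries in the interaction. Standard errors come from the F statistic. Calls needed more than 1.5-fold and an adjusted p under 0.05. The procedure was tested on simulated data. Alternatives were DESeq2 1.42.0, its size factors in edgeR, limma 3.58.1 (voom, log2(FPKM + 1) and log2(FPKM + 0.1), mean FPKM filter 0.5 or none), no filter, 10 counts in every library, a replicate block, all 12 libraries, no fold threshold, and each library left out. The 10 genes, the lists and alternatives were chosen with earlier results of these data known. List genes given with mean ± SD were taken from the 2 with the largest rise and 2 with the largest fall among called genes of at least 5 CPM in either group. Not all genes of this rule are named. Some other list genes are named outside it, and not all of those are marked. The genes nearest in pattern to Xirp2 are not reported here. Promoter windows are from RefSeq GRCr8, which is not the build of the tables.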

Additional observations from a re-analysis of the deposited data

Results flagged for a closer look

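The effect of PE differed between the siRNAs by the interaction test for Fhl1, with a log2 difference, siSlc25a26 less siNeg, of 1.40. Xirp1 at 0.38 and Nrap at 0.36 passed on edgeR's adjusted p alone, as 11.2% of all tested genes did at any fold, and were below 1.5-fold. In each of the 3 genes all siSlc25a26 PE libraries lay above all siNeg PE libraries. The same held for Ankrd1, Csrp3, Fhl2, Myoz2 and Actn2, which did not pass the interaction test. The share over all tested genes was not computed, so this separation is not a result about these genes. Slc25a26 itself was not lower in the libraries labelled siSlc25a26 PE than in siNeg PE, with means of 101 and 102 CPM. Summed fibroblast markers were lowest in siSlc25a26 PE, at 8621 to 9424 CPM, and their part in these differences was not tested.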

How the results depend on the processing

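With PE, 8 of the 9 tested genes were called higher with either siRNA under every alternative, and 1 was called lower (Fhl2) with no fold threshold. For siSlc25a26 without PE, the 2 of these genes called higher became 1 in DESeq2, in limma on log2(FPKM + 1) with and without the filter, in the fit of all 12 libraries and with the replicate block, 5 with no fold threshold (1 lower), and 0 to 2 when a library was left out. Under PE 4 became 8 with no fold threshold, 3 in limma on log2(FPKM + 1) without the filter (Xirp2 at an adjusted p of 0.0854) and 3 to 4 when a library was left out, and in the interaction 1 became 3 with no fold threshold. The share of all tested genes passing at any fold was 45.0% without PE and 11.2% in the interaction. It was not computed under PE, so those 8 have no background to be read against. Of 765 alternative values of single genes among the 9, 713 kept their direction and side of 0.05, 27 lost and 9 gained an adjusted p under 0.05, and 16 changed sign. Those 16 were Fhl2 and Nrap without PE, both near 0. Fhl2 was at -0.0099 in DESeq2 and with its size factors, -0.00072 in voom, -0.014 in the 3 FPKM settings, -0.00068 with the block and -0.066 to 0.046 when a library was left out. Nrap was at 0.046, 0.047 and 0.046 on FPKM, 0.017 in the fit of all 12 libraries and -0.058 to 0.017 when a library was left out. The cause was not tested.

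The libraries were not paired by replicate number in the main fits. Correlations of same-numbered libraries ran from -0.108 to 0.348 over the 4 comparisons, and not every pair passed 0.1 in any. Replicates 1, 2 and 3 gave 0.215, -0.024 and 0.348 for PE in siNeg, and 0.275, 0.013 and 0.22 for siSlc25a26 under PE. Whether some replicates shared an effect was not tested. The replicate block moved Xirp2 without PE to an adjusted p of 0.068, Fhl2 with PE in siSlc25a26 to 0.0917 and Myoz2 under PE to 0.0303. On FPKM scales the median of all genes moved to -0.14 and -0.17 for PE in siSlc25a26 and to -0.13 and -0.15 for the interaction, and without the filter it was at -0.05 for both. The share of calls that were higher went from 49.2% to 27.4%, 26.5% and 27.1%, and from 39.3% to 23.2%, 21.5% and 23.9%, respectively, with 8 of the 9 genes higher for PE in siSlc25a26 throughout. Over all genes, log2(FPKM + 1) with and without the filter called 854 and 817 higher and 730 and 728 lower for PE in siNeg, against 1708 and 1130. For PE in siSlc25a26 the FPKM settings called 562, 723 and 555 higher against 1389, and for siSlc25a26 without PE 453, 654 and 441 lower against 996. Under PE 616 and 621 were called higher against 1054. In the interaction 161, 195 and 152 were called higher against 305, and lower calls went from 471 to 712 on log2(FPKM + 0.1) and to 301 without siNeg PE replicate 3. The counts of the 4 other lists were recomputed in DESeq2 and with the replicate block. Lower calls in the interaction with the block went from 0 to 1 among partners and among paralogs, and under PE in DESeq2 from 1 to 0 among partners and from 2 to 1 among paralogs. Higher costamere calls without PE went from 2 to 1 in DESeq2. The 9 tested genes had at least 520 counts in every library, and Ankrd2 lay at or below the floor of 3 counts.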
